A study of Saccharomyces cerevisiae with 8 samples.

Results

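Chromosome IV is the longest chromosome in these tables of budding yeast, and its copy number was followed as cells entered S phase. Its members were the windows of chromosome IV more than 30 kb from either end, each 1000 bp long and placed every 500 bp, in coordinates of build sacCer2. There were 2942 of them among 24133 windows in the genome, and 2815 of these carried a copy number ratio in all 6 later libraries. The other 127 windows lay in 15 runs with few reads or with missing ratios. The longest such run spanned 527501 to 538500, where the windows held a median of 2 reads for the control and 1 for Mcm6-SuOn at 0 min.

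Replication starts at origins, where the MCM helicase is loaded before S phase and is then switched on with the help of the kinase Cdc7. Forks move away from each origin in both directions, so that in a culture passing through S phase DNA near early origins is present in more copies than DNA that replicates late. Such origins appear as peaks in copy number, and places that replicate late appear as valleys. ARS1, also named ARS416, is the origin beside TRP1, a gene of tryptophan synthesis, and is among the best studied origins of this yeast. In the RefSeq gene table TRP1 stands between SOK1 and GAL3, which encodes an inducer of the galactose genes.

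The cells were diploids of the W303 background. All of them carried 2 copies of cdc7-4, a temperature-sensitive allele of the kinase gene. All were also heterozygous for Mcm6-aid::HIS3, a degradable form of the helicase subunit Mcm6, and for ADH1-TIR::URA, which provides the auxin receptor for that degradation under the ADH1 promoter. The other copy of MCM6 was Mcm6-ctrl::KAN in the control and Mcm6-SuOn::KAN in the strain compared with it. Cultures grown in YPD were arrested with nocodazole, given auxin, moved to the temperature at which cdc7-4 is inactive and then released by cooling. Each genotype was sampled at 0, 15, 30 and 40 min. The comparison asks how copy number develops along the chromosome in cells that rely on one or the other form of Mcm6. Each genotype came from 1 strain, so genotype and strain cannot be told apart, and each genotype and time had 1 library, so the differences reported here lack a replicate check and were not tested.

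The used windows of chromosome IV held 1600197 to 2785475 reads per library, which was 12.4% to 12.8% of the reads of all inner windows. Later libraries were given as a ratio to the 0 min library of the same genotype, scaled to a mean of 1 on each chromosome, and a smoothed form of that ratio is used below unless another is named. A value above 1 is therefore above the mean of chromosome IV, not above an absolute copy number. Counting error in the ratio for 1 window was 0.0341 to 0.0392, and it is smaller in the smoothed ratio. The share of reads on chromosome IV over that at 0 min lay between 0.989 and 1.03 in the 6 later libraries. The ratio of a genotype takes in its 0 min library at all 3 later times, so values were also computed over the summed 0 min counts of both genotypes, called pooled below, and changes were computed from reads without any 0 min library. Intervals are at 95% and cover counting error only, since reads that carry no molecular identifier may repeat a molecule.

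Copy number was uneven along chromosome IV at all 3 later times in both genotypes, and over its own 0 min library it ranged more widely in the control. In the control the smoothed ratio ran from 0.835 to 1.35 at 15 min, from 0.758 to 1.38 at 30 min and from 0.675 to 1.303 at 40 min. In Mcm6-SuOn it ran from 0.910 to 1.096 at 15 min, from 0.883 to 1.18 at 30 min and from 0.739 to 1.17 at 40 min. The control extremes at 15 and 30 min and the lowest Mcm6-SuOn values at 15 and 40 min stood beside left out runs. The part of that position in these ranges was not tested. The SD over windows was 0.0922, 0.122 and 0.110 for the control and 0.0383, 0.0503 and 0.0689 for Mcm6-SuOn, so that the ratio of SDs was 0.415, 0.412 and 0.625. Over its own 0 min library the control SD was highest at 30 min and that of Mcm6-SuOn at 40 min. With the pooled denominator the SDs were 0.0569, 0.0957 and 0.0916 for the control and 0.0624, 0.0667 and 0.0532 for Mcm6-SuOn, with both highest at 30 min. The ratio of SDs was then 1.097, 0.696 and 0.581, which turned the order at 15 min. Chromosome IV was not at either extreme of the genome in this respect, since its SD ranked 7, 9 and 7 among the 16 chromosomes for the control and 8, 6 and 4 for Mcm6-SuOn.

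**Figure D1:**
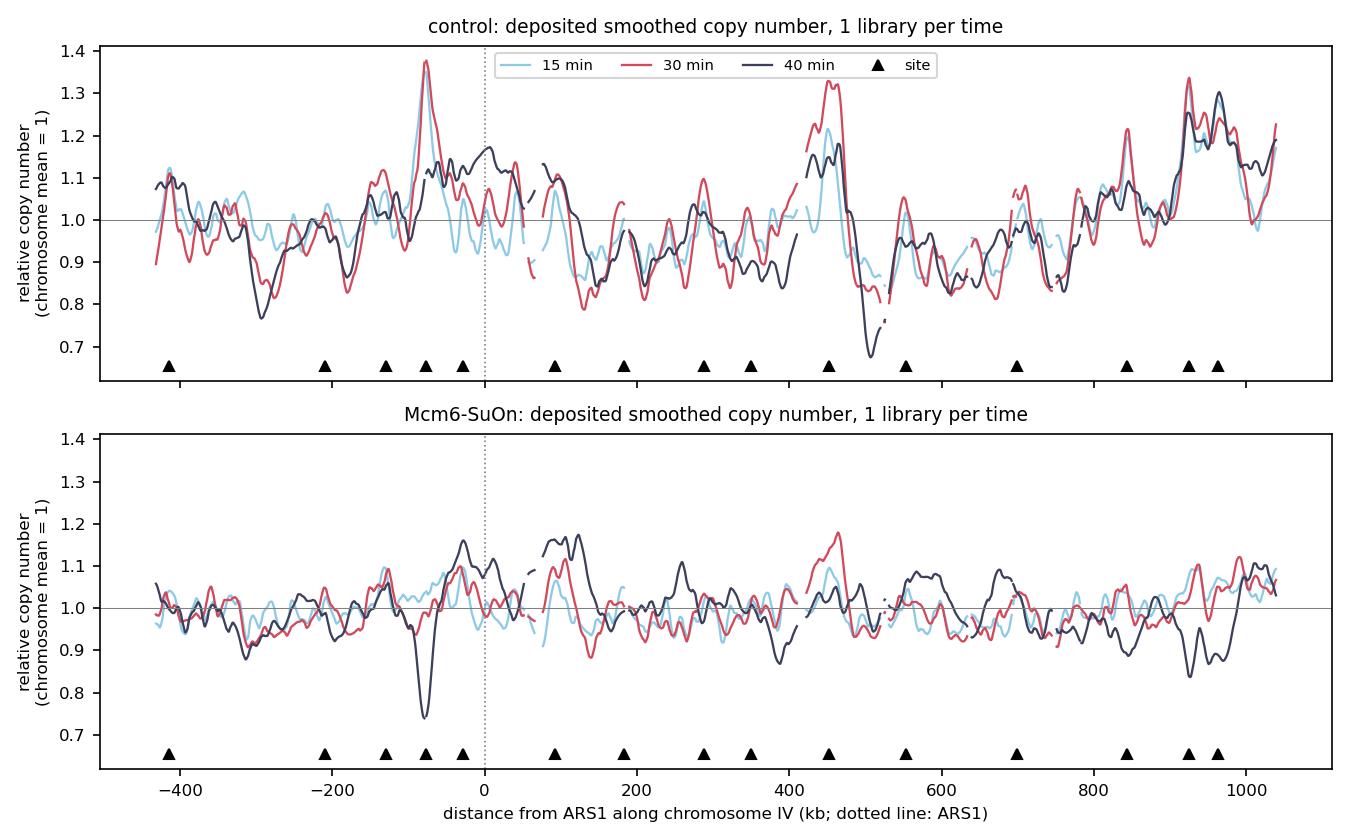
Smoothed copy number ratio along chromosome IV against distance from ARS1 in kb, with 1 panel for each genotype and 1 line for each of the 3 later times; ticks mark the 15 sites described in the text. The control lines reach 1.38 and the Mcm6-SuOn lines reach 1.18.

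In the control at 15 min, 325 of the 2815 windows (11.5%) stood at or above 1.1 and 301 (10.7%) at or below 0.9, beside 12.2% and 14.9% of the inner windows of the whole genome. At 30 min the control had 467 raised windows (16.6%, genome 17.5%) and 656 lowered ones (23.3%, genome 27%). At 40 min it had 591 raised windows (21.0%, genome 15.6%) and 545 lowered ones (19.4%, genome 19%). The share of raised windows on chromosome IV was thus near that of the genome at the first 2 of these times and above it at 40 min. In Mcm6-SuOn at 15 min no window of chromosome IV reached 1.1 or fell to 0.9, beside 0.497% and 0.112% of the genome. At 30 min there were 115 raised windows (4.09%, genome 2.08%) and 16 lowered ones (0.568%, genome 1.44%). At 40 min 207 windows (7.35%, genome 5.58%) were raised and 200 (7.10%, genome 5.02%) were lowered. These counts depended on the denominator. With the pooled 0 min counts, Mcm6-SuOn had 213 raised windows at 15 min (7.57%, genome 6.2%), 252 at 30 min (8.95%, genome 8.55%) and 139 at 40 min (4.94%, genome 2.84%). The lowered ones then numbered 49 (1.74%, genome 3.46%), 121 (4.30%, genome 7.83%) and 38 (1.35%, genome 2.21%). For the control the pooled denominator gave 173 raised windows (6.15%, genome 5.97%), 456 (16.2%, genome 14%) and 476 (16.9%, genome 11.4%), and 15 (0.533%, genome 2.96%), 487 (17.3%, genome 19.9%) and 463 (16.4%, genome 13.6%) lowered ones.

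At a prominence of 0.1 in the deposited profiles Mcm6-SuOn had fewer peaks than the control at every later time, but with smaller peaks counted the genotypes had as many at 15 min and nearly as many at 40 min. A peak was a window higher than all others up to 5 kb away, with a prominence of 0.1 or more, and a valley was the same on the inverted profile. There were 17, 18 and 12 control peaks at 15, 30 and 40 min, whereas Mcm6-SuOn had 6, 8 and 10. The numbers of valleys were 17, 18 and 12 for the control and 7, 9 and 10 for Mcm6-SuOn. With a prominence of 0.05, the control had 27, 23 and 19 peaks and Mcm6-SuOn had 27, 18 and 18. With a prominence of 1 SD of the library's own profile, the control had 18, 18 and 10 and Mcm6-SuOn had 31, 18 and 14. With the narrower smoothing of 6 kb half-width and a prominence of 0.1, the control had 25, 23 and 18 and Mcm6-SuOn had 28, 20 and 17. The order of the genotypes thus depended on the threshold and on the smoothing, and what follows describes peaks at the fixed prominence of 0.1. Per 100 kb there were 1.15, 1.22 and 0.815 peaks in the control, beside 0.986, 1.16 and 0.529 on the other 15 chromosomes. In Mcm6-SuOn there were 0.408, 0.544 and 0.679 peaks, beside 0.405, 0.488 and 0.591. Valleys per 100 kb numbered 1.15, 1.22 and 0.815 in the control, beside 1.02, 1.20 and 0.571 on the other 15 chromosomes. For Mcm6-SuOn they numbered 0.476, 0.611 and 0.679, beside 0.519, 0.612 and 0.581. With the pooled denominator the numbers of peaks were 13, 19 and 8 for the control and 10, 11 and 8 for Mcm6-SuOn, so that both genotypes had the same number at 40 min.

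Neighbouring control peaks stood a median of 84.75 kb apart at 15 min (30.5 to 162.5 kb), 76 kb at 30 min (45 to 119 kb) and 121.5 kb at 40 min (70.5 to 189.5 kb). In Mcm6-SuOn the medians were 103.5 kb (87.5 to 271 kb), 138 kb (84 to 358 kb) and 131 kb (74 to 233.5 kb). With a prominence of 0.05 the medians were 51, 59.75 and 73.75 kb for the control and 48.25, 69 and 74 kb for Mcm6-SuOn, so that the wider spacing in Mcm6-SuOn was not seen among peaks of all sizes at 15 and 40 min. On the other 15 chromosomes the medians were 76.75, 80.5 and 146 kb for the control and 170.5, 125 and 138 kb for Mcm6-SuOn. The longest stretch without a control peak lay between 749 and 912 kb at 15 min, between 133 and 252 kb at 30 min and between 736 and 925 kb at 40 min. The longest in Mcm6-SuOn lay between 643 and 914 kb at 15 min, between 567 and 925 kb at 30 min and between 721 and 954 kb at 40 min. In 5 of the 6 later libraries the longest stretch without a peak in the deposited ratios therefore ended between 912 and 954 kb. With the pooled denominator the longest stretches in the control lay at 48 to 332, 132 to 252 and 735 to 926 kb. Those in Mcm6-SuOn then lay at 48 to 382, 382 to 566 and 1137 to 1343 kb, so that the shared end depended on the denominator. Positions in kb are the start of the window, rounded down.

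At 15 min all 6 Mcm6-SuOn peaks lay within 5 kb of a control peak, which is 35.3% of the 17 control peaks. They stood at 330, 433, 555, 643, 914 and 1017 kb with heights between 1.05 and 1.096. At 30 min 2 of the 8 Mcm6-SuOn peaks (25%) lay within 5 kb of one of the 18 control peaks (11.1%), and at 40 min none of the 10 did. On the other 15 chromosomes 23 of 39 Mcm6-SuOn peaks lay that close at 15 min, 15 of 47 at 30 min and 4 of 57 at 40 min. These counts hold for the deposited ratios at a prominence of 0.1. Of the valleys, 1 of 7, 3 of 9 and 2 of 10 in Mcm6-SuOn lay within 5 kb of a control valley at 15, 30 and 40 min. The same was not counted for valleys on the other 15 chromosomes.

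**Figure D2:**
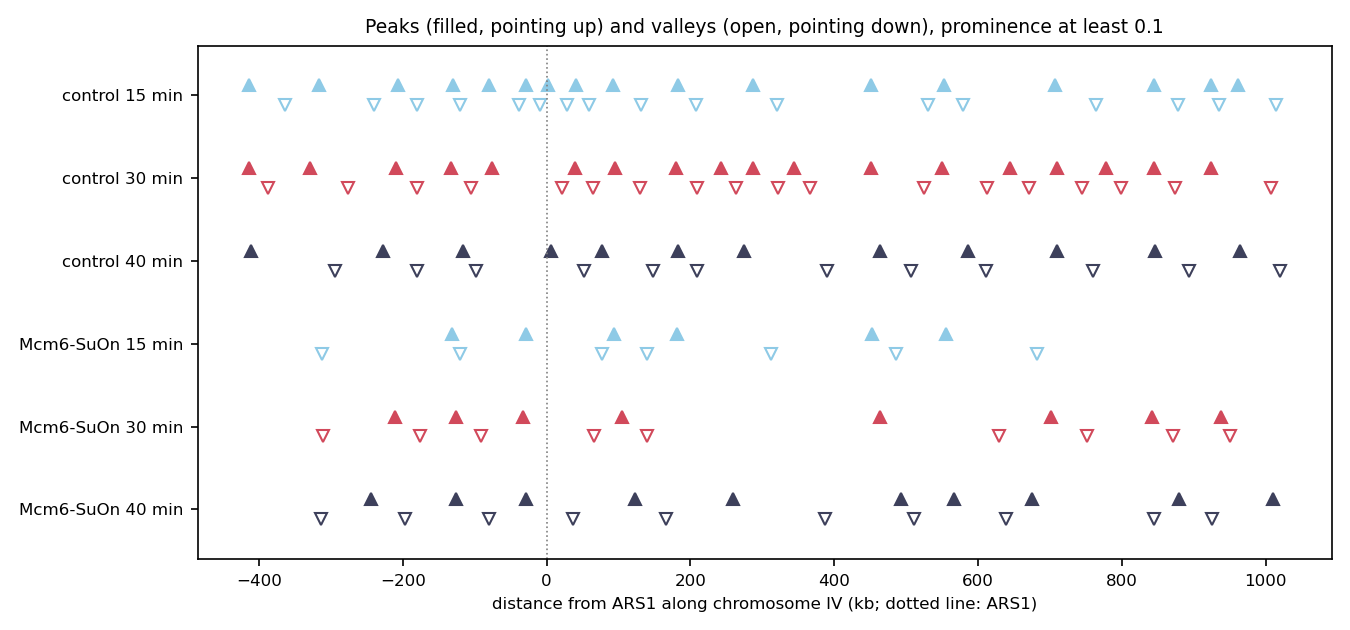
Positions of peaks and valleys in each of the 6 later libraries, as distance from ARS1 in kb. The control has 17, 18 and 12 peaks and Mcm6-SuOn has 6, 8 and 10, and each Mcm6-SuOn peak at 15 min has a control peak within 5 kb.

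To follow the same places through all libraries, sites were called as peaks of the mean of the 6 profiles with a prominence of at least 0.05. There were 15 of them, at 47, 252, 331, 385, 433, 554, 644, 750, 811, 914, 1014, 1161, 1304, 1386 and 1425 kb. Their median spacing was 95 kb, with 38.5 kb between the closest pair at 1386 and 1425 kb and 205 kb between the widest pair at 47 and 252 kb. Because these libraries chose the sites and the valleys between them, their values are a description. The value of a site is the mean of the smoothed ratio within 1 kb. The 6 highest were those at 914, 1386, 1425, 385, 433 and 554 kb.

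The site at 914 kb (window 914001 to 915000) had the highest mean, 1.16. Its values in the control were 1.21, 1.33 and 1.15 at 15, 30 and 40 min, and in Mcm6-SuOn they were 1.09, 1.14 and 1.02. Both genotypes were highest there at 30 min, and the control was above Mcm6-SuOn at each time. Set over the pooled 0 min counts the values were 1.19, 1.303 and 1.12 for the control and 1.12, 1.16 and 1.04 for Mcm6-SuOn, with the same order. Relative to the averaged low points flanking it, the site stood at 1.37, 1.61 and 1.52 for the control and at 1.16, 1.21 and 1.13 for Mcm6-SuOn. The peak was broader at each later time in both genotypes. Its width at 50% of its height was 23, 57.5 and 74.5 kb for the control and 31, 50.5 and 79.5 kb for Mcm6-SuOn.

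**Figure D3:**
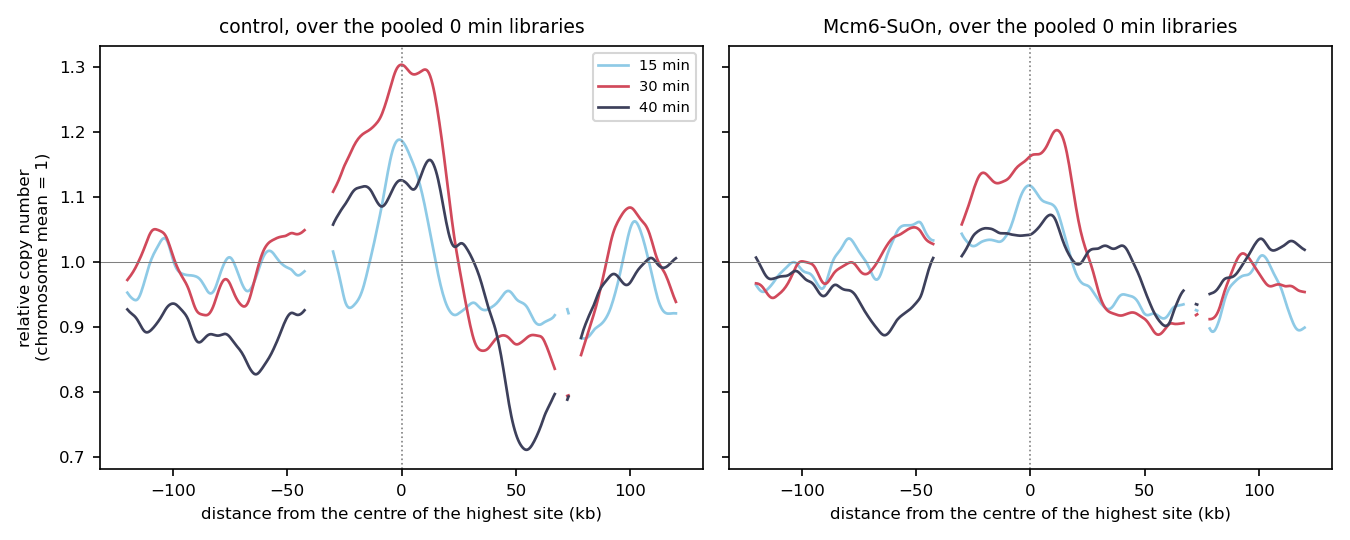
Copy number ratio over the pooled 0 min counts around the highest site, against distance from that site in kb, for both genotypes at 15, 30 and 40 min. At the site the control stands at 1.19, 1.303 and 1.12 and Mcm6-SuOn at 1.12, 1.16 and 1.04.

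The sites at 1386 kb (1386501 to 1387500) and 1425 kb (1425001 to 1426000) formed the closest pair. At 1386 kb the control values were 1.31, 1.33 and 1.2526, and the Mcm6-SuOn values were 1.08, 1.03 and 0.839. At 1425 kb they were 1.28, 1.24 and 1.3004 for the control and 1.07, 1.05 and 0.888 for Mcm6-SuOn. At both sites Mcm6-SuOn was lower at every time over its own 0 min library and below 1 at 40 min. With the pooled denominator the values at 1386 kb were 1.15, 1.17 and 1.099 for the control and 1.19, 1.13 and 0.929 for Mcm6-SuOn. At 1425 kb they became 1.13, 1.09 and 1.14 for the control and 1.19, 1.16 and 0.984 for Mcm6-SuOn. Mcm6-SuOn was then the higher at 15 min at both sites and at 30 min at 1425 kb. The site at 385 kb (385001 to 386000) held the highest control value of the 15 sites at 15 and at 30 min, with 1.34, 1.37 and 1.11 against 1.04, 0.988 and 0.748 in Mcm6-SuOn. Its pooled values were 1.12, 1.16 and 0.934 against 1.19, 1.13 and 0.864, with Mcm6-SuOn the higher at 15 min. It lay beside a run of 4 left out windows (383001 to 385500), and its own windows held the lowest read numbers of the 6 sites.

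The sites at 433 kb (433001 to 434000) and 554 kb (554501 to 555500) were highest at 40 min in Mcm6-SuOn. At 433 kb the control values were 1.05, 1.09 and 1.13, and those of Mcm6-SuOn were 1.095, 1.08 and 1.16. At 554 kb they were 1.07, 1.0998 and 1.09 for the control and 1.06, 1.09 and 1.16 for Mcm6-SuOn. Over their own 0 min libraries the genotypes differed at these sites by at most 0.0668. With the pooled denominator, Mcm6-SuOn minus control at 15, 30 and 40 min was -0.00967, -0.0653 and -0.0276 at 433 kb. At 554 kb it was then -0.0739, -0.0865 and -0.00608. Over the pooled 0 min counts the 40 min values were 1.16 and 1.13 at 433 kb and 1.13 and 1.13 at 554 kb, in the control and Mcm6-SuOn in turn.

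The other 9 sites were lower, with means over the 6 profiles between 0.991 and 1.08. Over all 15 sites the median value was 1.07, 1.0998 and 1.08 for the control and 1.04, 1.04 and 0.997 for Mcm6-SuOn at 15, 30 and 40 min. Mcm6-SuOn was lower at 9, 13 and 7 of the 15 sites, with a median difference of -0.00446, -0.0359 and 0.00921. With the pooled denominator it was lower at 11, 13 and 12 sites, with a median difference of -0.0244, -0.0486 and -0.0276, so that the direction at 40 min turned with the denominator. Contrast against the flanking low points separated the genotypes more. The median contrast was 1.18, 1.296 and 1.17 for the control and 1.105, 1.11 and 1.09 for Mcm6-SuOn, and it was lower in Mcm6-SuOn at 14, 15 and 11 of the 15 sites. Over the pooled counts the contrast was lower at 10, 14 and 13 sites, with a median difference of -0.0239, -0.102 and -0.0731, beside -0.0641, -0.184 and -0.107 over each genotype's own 0 min counts. The difference was thus smaller over the pooled counts at each time.

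The genotype difference at 30 min was most negative at 385 kb (-0.386), 1386 kb (-0.308) and 914 kb (-0.189). Set over the pooled 0 min counts these became -0.0234, -0.0384 and -0.140, so that the difference at 914 kb was the least changed of the 3. At 1425 kb, which came next with -0.187, the pooled value was 0.0763, with Mcm6-SuOn the higher. The difference was most positive at 252 kb (0.0315), 811 kb (0.00660) and 433 kb (-0.00499). With the pooled denominator these became 0.0100, -0.0486 and -0.0653, so that the sign turned at 811 kb.

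**Figure D4:**
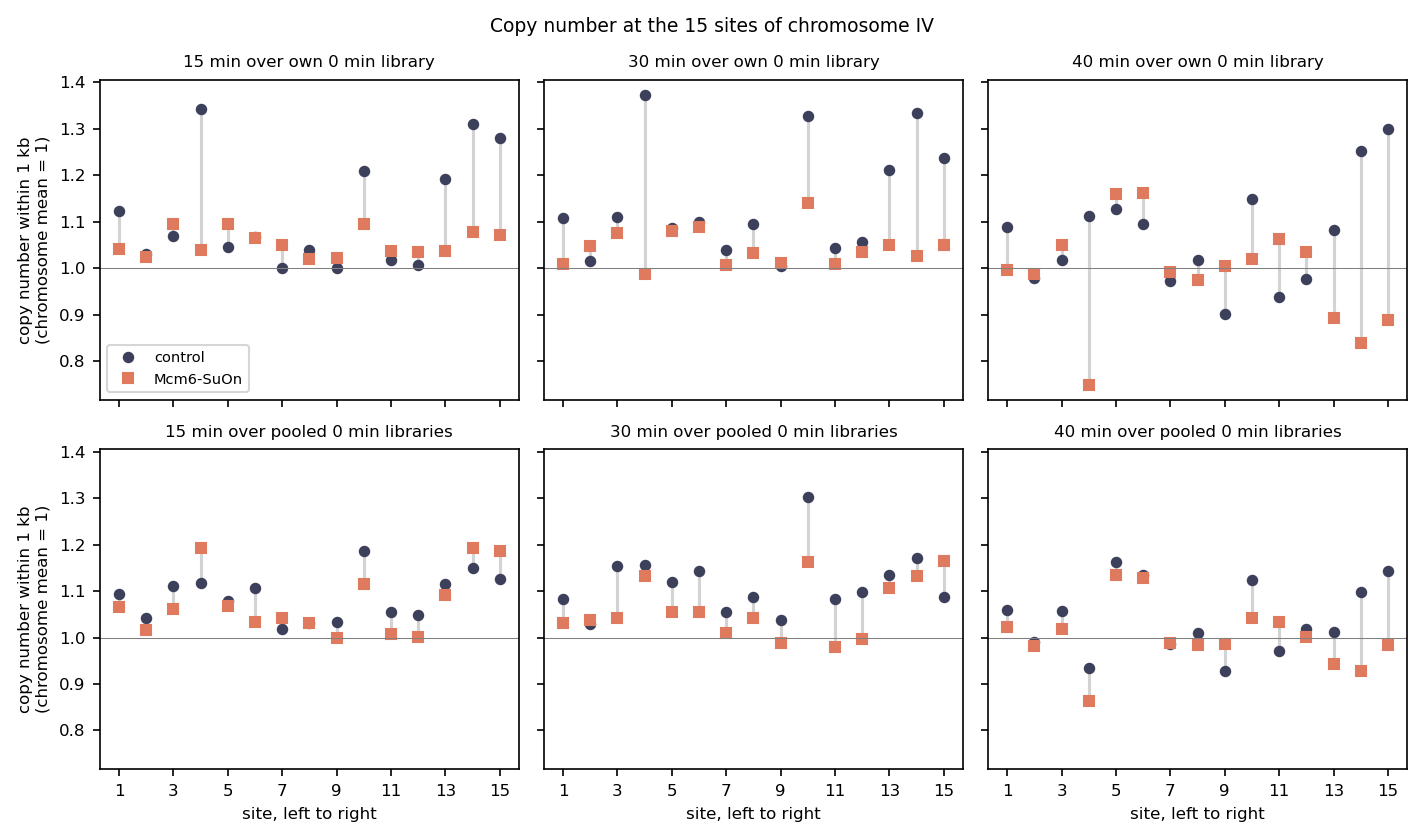
Value of the smoothed ratio at each of the 15 sites, numbered from left to right, with columns of panels for the times, the upper panels over each genotype's own 0 min counts and the lower over the pooled counts; dots are the control and squares Mcm6-SuOn. In the upper panels at 15 and 30 min the control stands furthest above Mcm6-SuOn at sites 4 and 14 (385 and 1386 kb), and in the lower panels that gap is small or turned.

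At the sites where the denominators gave the most different values, the control 0 min library held few reads. Within 5 kb of the site at 385 kb, the share of reads over the median of the 8 libraries was 0.734, 0.991, 1.02 and 0.827 for the control at 0, 15, 30 and 40 min, and 1.01, 1.05, 1.01 and 0.774 for Mcm6-SuOn. At 1386 kb it was 0.782, 1.02, 1.04 and 0.980 for the control and 0.984, 1.06, 1.02 and 0.836 for Mcm6-SuOn. The site at 1425 kb gave 0.784, 1.01, 0.977 and 1.02 for the control and 0.989, 1.07, 1.04 and 0.880 for Mcm6-SuOn. At these sites and at 1304 kb the control 0 min library was the lowest of the 8 and the Mcm6-SuOn 40 min library the second lowest. Over the 15 sites the control 0 min library was lowest at 6, the Mcm6-SuOn 0 min library at 5, and the control 30 min library was highest at 9. The share in Mcm6-SuOn over that in the control within 1 kb was 1.49 (1.38 to 1.61) at 385 kb at 0 min, and 1.05, 0.962 and 0.891 at 15, 30 and 40 min. At 1386 kb it was 1.32 (1.26 to 1.40) at 0 min and 1.03, 0.938 and 0.858 later. At 914 kb it was 1.01 at 0 min and 0.959, 0.877 (0.840 to 0.916) and 0.919 at 15, 30 and 40 min. The part of the low 0 min and 40 min shares in the peak heights was not tested beyond these values. Every deposited control ratio has the control 0 min library as its denominator, and no second 0 min control library was analysed here, so the low shares cannot be told apart from a property of that 1 library.

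**Figure D5:**
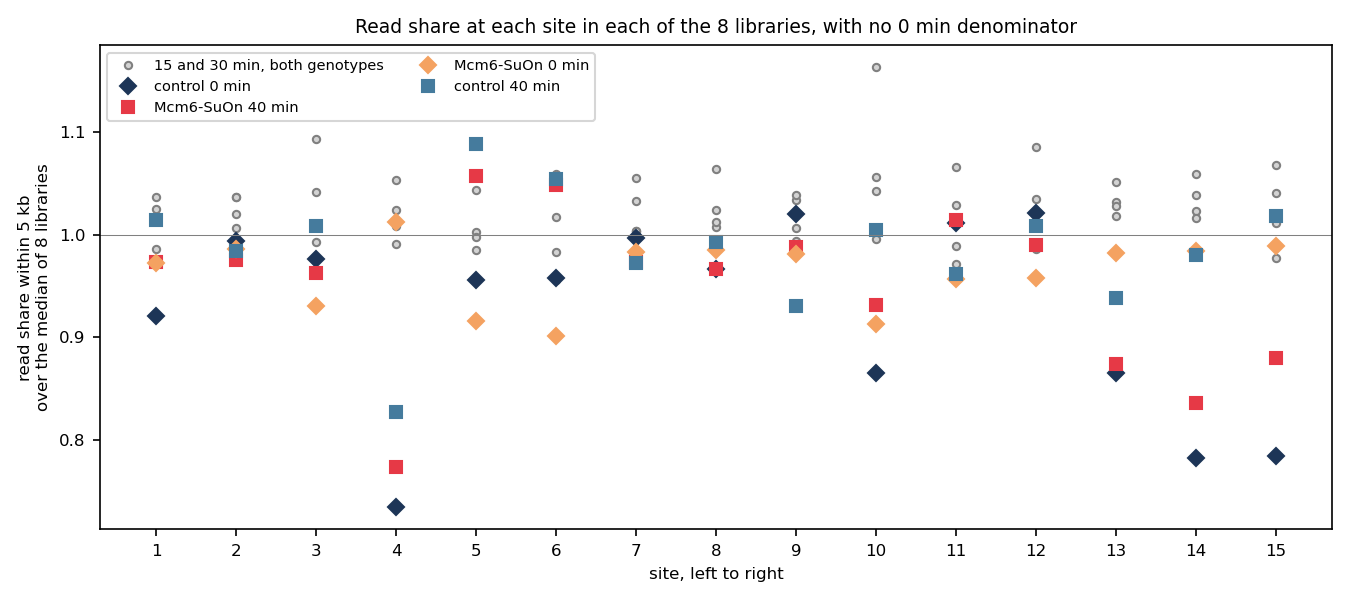
Share of chromosome IV reads within 5 kb of each of the 15 sites, over the median of the 8 libraries, with sites numbered from left to right; coloured markers are the 0 and 40 min libraries and grey circles the 15 and 30 min libraries. The control 0 min library is lowest at 6 sites, with values down to 0.734 at site 4 (385 kb).

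The low shares were also looked for along the whole chromosome. In bins of 10 kb, log2 of the control 0 min share over the control 15 min share ran with log2 of the Mcm6-SuOn 40 min share over the 30 min share (r = 0.75 and rho = 0.67 over 148 bins). Without the bins that hold the centres of the 6 highest sites, r was 0.71 over 142 bins. The peaks at these sites were wider than a bin, so parts of them stayed in. These are 4 separate libraries, neighbouring bins are not independent, and the comparison was chosen after the values were seen, so that it is a description. Both ratios hold a 15 or 30 min library in which the sites are high, and the part of that in the correlation was not tested. The control 0 min profile over the pooled one had its lowest value, 0.819, at 382 kb and its highest, 1.09, at 986 kb. The pooled counts are the sum of both 0 min libraries, so the Mcm6-SuOn 0 min profile mirrors this by construction and is no separate result. It stood at 1.15 at 382 kb and at 0.925 at 986 kb. Both places lay beside left out windows.

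At 0 min, before release, read shares past 1.5-fold between the genotypes were few on chromosome IV. They were found in 4 of 2892 windows (0.138%, genome 0.97%) with Mcm6-SuOn higher, a share under that of the genome. With Mcm6-SuOn lower there were 2 of 2892 windows, a share above that of the genome (5 of 21859 windows, 0.0229%). These 2892 windows had a summed 0 min count of at least 50 and included windows left out elsewhere. All 4 higher windows lay between 381001 and 386000, at and beside the site at 385 kb. The run of 2 windows at 383501 to 385000 had summed window counts of 522 for control and 965 for Mcm6-SuOn, a ratio of 1.55 (1.33 to 1.81). The 2 lower windows, at 518001 and 881501, rested on 59 and 43 reads and on 53 and 41 reads. That run and the 2 lower windows were among the windows left out elsewhere.

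Summed over 5 kb, the read shares of the genotypes differed more before release than at 15 min. At 0 min 281 windows (9.98%, genome 11.5%) were at least 1.1-fold higher in Mcm6-SuOn and 141 (5.01%, genome 7.66%) as much lower. At 15 min these were 12 windows (0.426%, genome 1.05%) and 5 windows (0.178%, genome 1.79%). At 30 min they were 66 (2.34%, genome 2.6%) and 71 (2.52%, genome 3.69%), and at 40 min 185 (6.57%, genome 5.63%) and 170 (6.04%, genome 5.43%). The shares on chromosome IV were at or under those of the genome at the first 3 times and somewhat above them at 40 min. The extremes were 1.45 at 382 kb and 0.869 at 1057 kb at 0 min, 1.14 at 892 kb and 0.903 at 1166 kb at 15 min, 1.20 at 986 kb and 0.868 at 329 kb at 30 min, and 1.34 at 966 kb and 0.830 at 1428 kb at 40 min. The window at 986 kb lay between the left out runs 981501 to 987000 and 987501 to 993000, with few used windows beside it.

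Between 15 and 30 min, without any 0 min library, the sites gained on the valleys in the control. The read share at 30 min over that at 15 min had a median of 1.03 over the 15 sites (0.949 to 1.11) and was above 1 at 12 of them, with an interval wholly above 1 at 3 and wholly below 1 at 1. Over the 15 valleys between and beside them the median was 0.929, and it was above 1 at 2. Between 30 and 40 min the order turned, with a median of 0.921 at the sites, above 1 at 3, and of 1.05 at the valleys, above 1 at 11. In Mcm6-SuOn the medians were 0.979 at sites and 0.961 at valleys from 15 to 30 min, and 0.982 and 1.02 from 30 to 40 min. By these medians, at sites and valleys called on the mean of the 6 profiles, Mcm6-SuOn sites changed less against valleys in both steps. From 30 to 40 min single sites ranged more widely in Mcm6-SuOn (0.755 to 1.11) than in the control (0.814 to 1.03). From 15 to 30 min the control range was the wider, with Mcm6-SuOn sites at 0.924 to 1.04. The site at 914 kb gave 1.11 (1.07 to 1.16) and then 0.856 (0.820 to 0.894) in the control, and 1.02 (0.970 to 1.07) and then 0.897 (0.860 to 0.937) in Mcm6-SuOn.

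Over all windows, 193 (6.86%, genome 6.56%) were at least 1.1-fold higher and 180 (6.39%, genome 6.63%) as much lower at 30 than at 15 min in the control. From 30 to 40 min it was 319 (11.3%, genome 11.3%) and 347 (12.3%, genome 12%). Mcm6-SuOn had 35 (1.24%, genome 1.12%) and 7 (0.249%, genome 0.311%) in the first step and 220 (7.82%, genome 8.86%) and 310 (11.0%, genome 10.9%) in the second. These shares were near those of the genome throughout. The widest gain in the control from 15 to 30 min was 1.297 (1.2529 to 1.34) at 892 kb, on the left flank of the highest site, and in Mcm6-SuOn it was 1.16 (1.12 to 1.20) at 929 kb, on its right flank. The control 15 min profile over the pooled counts had a valley of 0.929 at 891 kb. The part of that valley in the control gain was not tested. From 30 to 40 min the widest gains were 1.26 at 525 kb in the control, beside the valley at 526 kb, and 1.22 at 591 kb in Mcm6-SuOn. The deepest losses in that step were at 382 kb in both genotypes, at 0.775 for the control and 0.723 for Mcm6-SuOn.

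By medians, peaks were wider at later times in both genotypes. Widths at 50% of the height had a median of 16 kb over 15 sites at 15 min, 26.75 kb over 14 at 30 min and 56.5 kb over 11 at 40 min in control cells. Mcm6-SuOn gave 22.5 kb over 14 sites, 41.5 kb over 12 and 71.5 kb over 7. From 15 to 30 min the control peaks were wider at 11 of 14 sites, by a median of 8 kb, and those of Mcm6-SuOn at 12 of 12, by a median of 19.25 kb. The exceptions in the control were at 385 kb (26.5 to 22.5 kb), 1386 kb (11.5 to 11 kb) and 1425 kb (17.5 to 16 kb). Over the pooled 0 min counts the median changes were 15.0 kb, with 12 of 13 wider, and 18.5 kb, with 12 of 13 wider. All widths are those of smoothed profiles, for which the matching fit had a half-width of 12.5 kb. The part of the smoothing in the narrow widths was not tested. Only sites at least 0.05 high have a width, so the numbers of sites differ between libraries.

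The 3 lowest valleys of the mean profile lay at 971, 672 and 166 kb. The valley at 971 kb (971001 to 972000) had a mean of 0.871, with 0.871, 0.842 and 0.683 for the control at 15, 30 and 40 min and 0.958, 0.930 and 0.947 for Mcm6-SuOn. It was deepest for the control at 40 min, and for Mcm6-SuOn it varied little. Over the pooled counts it stood at 0.916, 0.887 and 0.718 for the control and at 0.914, 0.889 and 0.907 for Mcm6-SuOn, so that the genotypes were level at 15 and 30 min and apart at 40 min. Its read share fell to 0.824 of the 30 min share at 40 min in the control, against 0.991 in Mcm6-SuOn. The valley at 672 kb (mean 0.899) had 0.879, 0.812 and 0.844 for the control and 0.947, 0.921 and 0.995 for Mcm6-SuOn. That at 166 kb (mean 0.8997) had 0.953, 0.860 and 0.773 for the control and 0.957, 0.932 and 0.925 for Mcm6-SuOn. All 3 were lower in the control at each time over its own 0 min library, but over the pooled counts none was lower in the control at 15 min. The valley at 166 kb was then at 0.979 against 0.935 in Mcm6-SuOn, that at 672 kb at 0.9163 against 0.9159 and that at 971 kb at 0.9157 against 0.9145.

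ARS1 was a landmark of modest height on this chromosome at 15 and 30 min and stood higher at 40 min. In the window that holds it (461501 to 462500) the smoothed ratio was 1.01, 1.04 and 1.17 for the control at 15, 30 and 40 min and 0.998, 0.984 and 1.08 for Mcm6-SuOn. It was highest at 40 min in both genotypes and near 1 before that. The window stood above 65.5%, 67.4% and 93.5% of the used windows in the control and above 53.9%, 43.2% and 86.9% in Mcm6-SuOn. Within 2 kb of ARS1 there were 5687, 6012, 6964 and 7329 reads for the control at 0, 15, 30 and 40 min and 6704, 5056, 6059 and 9333 for Mcm6-SuOn. As a share of chromosome IV over 0 min this was 1.04 (1.00 to 1.08), 1.05 (1.02 to 1.09) and 1.17 (1.13 to 1.21) in the control. In Mcm6-SuOn it was 1.00 (0.968 to 1.04), 0.979 (0.946 to 1.01) and 1.07 (1.03 to 1.099).

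The read share at ARS1 changed little from 15 to 30 min, with 1.01 (0.977 to 1.05) for the control and 0.975 (0.939 to 1.01) for Mcm6-SuOn. From 30 to 40 min it was 1.11 (1.08 to 1.15) and 1.09 (1.05 to 1.12), above 1 in both. Mcm6-SuOn over control was 1.01 (0.975 to 1.05) at 0 min, 0.976 (0.940 to 1.01) at 15 min, 0.941 (0.909 to 0.974) at 30 min and 0.921 (0.893 to 0.949) at 40 min, and the intervals at the last 2 times lay below 1. The nearest control peak was 2.50 kb away at 15 min, 40.0 kb away at 30 min and 7 kb away at 40 min. With the narrower smoothing, of 6 kb half-width, and a prominence of 0.1, 1 control peak stood within 5 kb of ARS1 at each of the 3 times. No Mcm6-SuOn peak did so at that prominence. With a prominence of 0.05, both genotypes had 1 peak within 5 kb at 15 min in the deposited, pooled and narrower profiles. At 30 and 40 min Mcm6-SuOn had none there. In Mcm6-SuOn the nearest peaks of the deposited profiles at a prominence of 0.1 were 28.5, 32.0 and 28.0 kb away, on the side of the site at 433 kb. ARS1 was not itself one of the 15 sites and lay between those at 433 and 554 kb, but sites called on the control profiles alone included 1 at 465 kb.

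The chromosome was also summarised in sections of 250 kb. In the control the section from 1250 to 1500 kb had the highest mean at 15, 30 and 40 min, at 1.102, 1.098 and 1.11, and the section from 1000 to 1250 kb the lowest, at 0.933, 0.925 and 0.917. In Mcm6-SuOn the right section had means of 1.03, 1.02 and 0.965, and the section to its left 0.976, 0.977 and 1.01, so that over its own 0 min library the right section was the lower at 40 min. The right section held a 0 min read share 1.09 times as high in Mcm6-SuOn as in the control. With the pooled denominator its means were 1.05, 1.05 and 1.06 for the control and 1.07, 1.06 and 1.00 for Mcm6-SuOn, so that Mcm6-SuOn was the higher at 15 and 30 min and the control at 40 min. The section to its left then stood at 0.9496, 0.951 and 0.982 in Mcm6-SuOn, below the right section at each time.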

How the data were processed

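The 0 min values are raw read counts deposited by the authors for windows of 1000 bp placed every 500 bp. For later times the authors deposited, per the file headers, a ratio for each window, an adjusted ratio whose mean is 1 on every chromosome, and a smoothed version of the adjusted ratio. The first ratio was checked on the values to be the later count over the 0 min count of the same genotype, which gave back the later counts. Per the submitters' processing notes, coordinates follow sacCer2. For the aligner, the counting program, the smoother and the filter on low windows, names and settings are not given in the sources used here. Windows without a ratio in any later library were left out.

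Other denominators were smoothed with a local quadratic fit of 12.5 kb half-width, which ran along the deposited smoothed ratio with r of at least 0.997 in each library. Each read was counted once for depth, which set a counting error of 0.0341 to 0.0392 per window ratio. The pooled denominator sums the 0 min counts of both genotypes. Intervals for ratios of read shares are exact binomial. Peaks, sites, contrast and width were defined as stated beside their first values. The smoother and peak finder were tested on simulated data. No statistical test was run, with 1 library per genotype and time.

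The places named were ARS1, the 6 highest sites, the 3 most negative and 3 most positive genotype differences at 30 min, the 3 lowest valleys, the longest stretch without a peak, and runs of windows past 1.5-fold at 0 min. The sites at 1304, 1425 and 1014 kb, the single windows past 1.5-fold, the positions of the Mcm6-SuOn peaks at 15 min and the extremes of read share were also named after their values were seen. The members, definitions and alternatives were chosen with earlier results of these data known. Analyses used Python 3.11.15, NumPy 2.4.6, pandas 2.3.3, SciPy 1.17.1 and Matplotlib 3.10.9.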

Additional observations from a re-analysis of the deposited data

Results flagged for a closer look

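At the site at 1014 kb the read share moved in opposite directions in the genotypes from 30 to 40 min. It was 0.885 (0.845 to 0.927) of the 30 min share in the control and 1.05 (1.01 to 1.102) in Mcm6-SuOn. Each genotype had 1 library at each time, the intervals cover counting error only, and the difference was not tested. The sites at 554 kb (0.969 and 1.11) and 1425 kb (1.03 and 0.840), control and Mcm6-SuOn in turn, also moved in opposite directions. At those sites the control interval held 1.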

How the results depend on the processing

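Of 156 alternative values, 101 moved by less than the tolerance of their kind, 50 moved by more and 5 changed direction. The smoothed values at ARS1 were among the first, while the number of control peaks near it changed with the smoothing. The Mcm6-SuOn 0 min counts as the denominator of both genotypes and the sites called on pooled profiles were chosen after seeing the data. The SD ratio at 15 min turned to 1.097 over pooled 0 min counts and was 0.468 with a half-width of 6 kb. At 30 min it was 0.696 over pooled counts. Over the Mcm6-SuOn 0 min counts it was 0.886, 0.586 and 0.775 at 15, 30 and 40 min.

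With a prominence of 0.05 the numbers of peaks were 27 and 19 in the control at 15 and 40 min and 27, 18 and 18 in Mcm6-SuOn, and those of valleys 27 and 19 and 28, 19 and 18. With a prominence of 1 SD, Mcm6-SuOn had 31 and 18 peaks and 32 and 19 valleys at 15 and 30 min. With the half-width of 6 kb it had 28, 20 and 17 peaks, beside 25, 23 and 18 in the control. Over pooled counts it had 10 peaks at 15 min.

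The median site difference turned to 0.0245 at 15 min on sites of the Mcm6-SuOn profiles. At 40 min it turned to -0.0276 over pooled counts, -0.0308 over the Mcm6-SuOn 0 min counts and -0.0292 on sites of the control profiles. The median contrast difference kept its sign. At 15, 30 and 40 min it was -0.0239, -0.102 and -0.0731 over pooled counts, -0.0239, -0.129 and -0.0659 with sites also called on pooled profiles, -0.0218, -0.115 and -0.0520 over the Mcm6-SuOn 0 min counts, -0.0250, -0.121 and -0.0630 on sites of the Mcm6-SuOn profiles, and -0.0370, -0.150 and -0.0420 on sites of profiles scaled to equal SD. On sites of the control profiles it was -0.0766 at 40 min. With reads summed over 10 kb, 0 windows were past 1.1-fold in either direction between genotypes at 15 min, and 20 were higher and 45 lower in Mcm6-SuOn at 30 min. The cause of these changes was not tested. No paired analysis was possible because each genotype and time had 1 library. Counting error limits single windows, and 1 library per group limits every comparison.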
